A study of Mus musculus with 16 samples.

Results

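The genes described here are 139 of the 1793 in the gene-level array table. Their mean log2 intensity in colons of germ-free mice monocolonised with Bifidobacterium UCC2003 stood at least 0.4 above, or at least 0.4 below, both the mean with the TadA mutant of that strain and the mean in germ-free colons, while the last 2 means lay within 0.3 of each other. The limits were met by 159 genes, of which 20 were left out by name because they belong to gene groups set apart beforehand (olfactory receptor, Zfp zinc finger and Slc transporter genes, and Gcg, Insl5, Nqo1 and B4galnt2). UCC2003 was higher for 60 of the 139 and lower for 79. All 4 groups were Swiss Webster mice, an outbred stock, kept germ-free before treatment: CONV mice were re-conventionalised with a microbiota, UCC2003 mice carried the parent Bifidobacterium alone, TadA mutant mice carried the strain with a mutant TadA gene alone, and GF mice stayed germ-free. RNA came from the colon, 4 arrays per group, each called a biological replicate in the labels. The design text states 5 CONV animals, and 4 have arrays here. Age, sex, cage and the time after colonisation are not given in the sources used here.

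The 12 arrays of the UCC2003, TadA mutant and GF groups chose the genes. Differences among those groups are therefore given as a description without a test, and tests are given only for CONV. Every gene of the table had passed an ANOVA of the authors over those same 12 arrays. Values are log2 intensities: a difference of 1 is a 2-fold change in intensity, a level cannot be set against that of another gene, and ± gives the SD over the 4 arrays of a group.

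Bifidobacteria are early and abundant colonists of the mammalian gut. Tad pili are thin, flexible bacterial surface fibres used in tight adherence to surfaces, and TadA is the ATPase that drives their assembly. Tad pili are known as a host colonisation factor of UCC2003, and the study's title concerns growth of the colonic epithelium in answer to a pilus protein. A gene of this set separates the parent strain both from the pilus mutant and from having no bacteria.

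Median log2 intensities per array ran from 5.91 to 6.03 and correlations between arrays from 0.938 to 0.979. Markers of the colonic lining were present at high levels, with list means per array of 10.4 to 10.6 in UCC2003 for absorptive colonocytes and 9.99 to 10.2 for goblet cells. Transcripts of most of the measured pancreas genes were high in part of the arrays only. The 5 measured genes of a 23-gene pancreas list averaged 10 or more in 8 of 16 arrays: 2 CONV, 2 UCC2003, 1 TadA mutant and 3 GF. The gene-level columns carry a group but no replicate number, so these arrays were not left out of the gene-level values by name. Each column was left out in turn instead, and the set then held 125 to 153 genes. Leaving out 1 column keeps other arrays with a high pancreas list mean. The range therefore cannot show whether the set depends on them. Some genes were also read on transcript clusters, a separate summary of the probes with replicate numbers. Retnla had 7.12, 7.37, 7.24 and 7.83 in the UCC2003 columns and 7.96, 8.37, 8.24 and 8.68 in cluster replicates 1 to 4, the same order. Cyp2c55, Scd2 and Mcpt1 also kept their order in the UCC2003 arrays. For Tubb3, Ube2c, C1qb, Jund and Cyp4f14 the order differed. Whether columns follow the replicate numbers was not tested.

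The median of the smaller difference (the lesser of the differences to TadA mutant and to GF) was 0.52 log2 units for the 60 genes higher in UCC2003 and 0.51 for the 79 lower in it. It reached 1 in 6 of the higher genes, led by Gm609 at 1.91, and in 1 of the lower genes, Gm11534, at 1.78. All 4 UCC2003 arrays lay outside the range of all 8 TadA mutant and GF arrays for 23 of the 60 and 25 of the 79, against 154 of 1793 genes (8.59%) in the whole table; the choice of the genes favours such separation, and nothing is read from the comparison. Signal was low for many: the mean over the 16 arrays was under 5 for 40.0% of the higher and 50.6% of the lower genes, against 25.9% of the table. Replicates also spread more. The median SD in the UCC2003 group was 0.244 for the higher genes, 0.271 for the lower genes and 0.159 for the table, and in the GF group it was 0.243, 0.250 and 0.179. Within groups the genes did not move as a block, since the median pairwise correlation of deviations from the group means was 0.058 among the higher genes, 0.018 among the lower genes and 0.024 over all genes of the table.

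Gm609 (ENSMUSG00000053182), a predicted protein-coding gene on chromosome 16 with no established function, separated the groups most. It had 6.34, 7.14, 7.14 and 7.87 in UCC2003, 5.20, 5.06, 5.57 and 5.02 in TadA mutant and 5.23, 5.21, 4.72 and 4.91 in GF. All 4 UCC2003 arrays were above all TadA mutant and GF arrays, and the means differed 3.75-fold from TadA mutant and 4.31-fold from GF. In the order of RefSeq genes, Gm609 lies next to 2 other genes of the set, with 1 RefSeq gene starting between it and Cd200, and with the pseudogene Gm16011 inside it. Cd200 encodes a membrane glycoprotein that restrains myeloid cells through the receptor CD200R. It had 6.34, 6.78, 6.81 and 6.99 in UCC2003, 6.21, 5.80, 6.12 and 6.61 in TadA mutant and 6.35, 6.28, 6.07 and 6.0 in GF. Its lowest UCC2003 array lay within the range of the other groups and the other 3 were above them. Gm16011 had 5.60, 5.69, 5.64 and 5.89 in UCC2003, 5.11, 5.16, 5.15 and 4.87 in TadA mutant and 4.98, 5.15, 4.90 and 5.53 in GF, and its UCC2003 arrays were above all others. The promoter of Cd200 is shown because Cd200 is the best characterised of these 3 neighbouring genes of the set. The measured genes on either side, Atp6v1a and Abhd10, were outside the set. Their UCC2003 minus GF differences were -0.09 and -0.27, and their UCC2003 minus TadA mutant differences were -0.28 and 0.42. RefSeq's promoter table held no entry for Gm609.

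The Cd200 promoter (RefSeq, GRCm38.p6, chr16:45409004-45409303, minus strand; 250 bases before to 50 after the transcript start) carries 1 GC box, GGGCGG, in capitals:
Cd200: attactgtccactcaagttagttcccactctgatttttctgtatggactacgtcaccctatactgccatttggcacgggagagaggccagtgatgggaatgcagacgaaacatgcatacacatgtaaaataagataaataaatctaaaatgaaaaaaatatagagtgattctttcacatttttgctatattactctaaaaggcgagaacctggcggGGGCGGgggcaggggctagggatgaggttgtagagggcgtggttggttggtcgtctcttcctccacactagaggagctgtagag

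The 3 genes of the table whose levels over the 16 arrays were most like those of Gm609 were Gm12944 (Pearson r = 0.853), Retnlb (0.845) and Glt1d1 (0.810). These correlations describe the 16 arrays, which share the group differences that chose Gm609. Gm12944, a processed pseudogene, and Glt1d1, which encodes a protein with a glycosyltransferase domain, belong to the set themselves. Retnlb, a goblet cell gene for a secreted resistin-like molecule, lies on chromosome 16 as Gm609 does and is outside the set, since TadA mutant and GF differed by more than 0.3. Gm12944 averaged 11.39 ± 0.05 in UCC2003, 10.94 ± 0.14 in TadA mutant and 10.82 ± 0.15 in GF, with all UCC2003 arrays highest. Glt1d1 had 6.02, 6.31, 6.68 and 5.98 in UCC2003, 5.07, 4.76, 5.96 and 5.21 in TadA mutant and 4.84, 5.04, 4.96 and 5.07 in GF, with all UCC2003 arrays above all others.

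Several genes higher in UCC2003 encode enzymes. Tpmt, the methyltransferase that inactivates thiopurine drugs, had 7.08, 6.21, 7.33 and 7.51 in UCC2003, 5.96, 5.76, 5.77 and 6.11 in TadA mutant and 5.55, 5.98, 6.14 and 5.21 in GF. All UCC2003 arrays were above the rest, and the means differed 2.19-fold from TadA mutant and 2.48-fold from GF. Sult3a1, a mouse cytosolic sulfotransferase, averaged 3.42 ± 0.21 in UCC2003, 2.48 ± 0.28 in TadA mutant and 2.68 ± 0.44 in GF, at low signal and with overlap between groups. Hpd, an enzyme of tyrosine breakdown, averaged 7.52 ± 0.14 in UCC2003, 7.11 ± 0.28 in TadA mutant and 6.97 ± 0.15 in GF, and its UCC2003 arrays were above all others. Ak4, an adenylate kinase of the mitochondrial matrix, had 6.36, 6.64, 6.46 and 6.55 in UCC2003, 5.94, 5.55, 5.34 and 6.51 in TadA mutant and 5.85, 5.94, 6.0 and 6.03 in GF. Its UCC2003 arrays lay above all GF arrays and above 3 of the 4 TadA mutant arrays. Prpsap1, a regulator of phosphoribosyl pyrophosphate synthesis, averaged 8.81 ± 0.23 in UCC2003, 8.36 ± 0.23 in TadA mutant and 8.38 ± 0.19 in GF, Lhpp, a phosphatase, 6.52 ± 0.22 in UCC2003, 6.02 ± 0.38 in TadA mutant and 5.77 ± 0.26 in GF, and Vma21, an assembly factor of the vacuolar proton pump, 6.40 ± 0.17 in UCC2003, 5.82 ± 0.36 in TadA mutant and 5.99 ± 0.15 in GF.

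Kinase, scaffold and chaperone genes were among the higher ones too. Pak3, a kinase that acts downstream of the small GTPases Rac and Cdc42 and is best known from brain, had 3.66, 4.36, 3.83 and 3.87 in UCC2003, 3.10, 2.84, 2.91 and 2.70 in TadA mutant and 2.97, 3.14, 2.88 and 2.69 in GF. Every UCC2003 array was above every TadA mutant and GF array, at low intensity. Hspb6, a small heat shock protein abundant in muscle, had 8.56, 8.22, 8.34 and 7.91 in UCC2003, 7.75, 7.74, 7.78 and 7.64 in TadA mutant and 7.69, 7.94, 7.61 and 7.40 in GF; the lowest UCC2003 array fell below the highest GF array. Erc1, a scaffold protein, averaged 6.26 ± 0.19 in UCC2003, 5.71 ± 0.32 in TadA mutant and 5.56 ± 0.48 in GF. On its transcript cluster, a separate summary of its probes, Erc1 averaged 7.42 ± 0.31 in UCC2003, 7.33 ± 0.33 in TadA mutant and 7.27 ± 0.25 in GF, which does not meet the 0.4 limit. Lrrc41, a leucine-rich repeat protein, averaged 7.26 ± 0.18 in UCC2003, 6.79 ± 0.15 in TadA mutant and 6.68 ± 0.24 in GF, and Sfi1, a centrosomal protein, 7.22 ± 0.22 in UCC2003, 6.66 ± 0.15 in TadA mutant and 6.78 ± 0.10 in GF. For both, all UCC2003 arrays were above the other 8. Pabpc1l, a poly(A)-binding protein of oocytes, averaged 4.56 ± 0.34 in UCC2003, 3.99 ± 0.18 in TadA mutant and 3.84 ± 0.19 in GF and Cdhr1, a cadherin known from photoreceptors, 5.93 ± 0.40 in UCC2003, 5.43 ± 0.07 in TadA mutant and 5.42 ± 0.07 in GF.

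Mast cell and vascular genes were also in the set. Cpa3, carboxypeptidase A of mast cell granules, had 5.65, 5.90, 5.63 and 4.60 in UCC2003, 4.77, 4.69, 4.58 and 4.85 in TadA mutant and 4.44, 4.57, 4.86 and 4.68 in GF. Its higher mean rested on 3 UCC2003 arrays, with the fourth inside the range of the other groups. Cma1, the mast cell chymase, had 6.36, 6.13, 6.13 and 6.10 in UCC2003, 5.44, 5.67, 5.26 and 6.22 in TadA mutant and 5.56, 5.60, 5.57 and 5.61 in GF, with 1 TadA mutant array at the level of UCC2003. Mrgprb2, a mouse mast cell receptor for basic secretagogues, went the other way with 3.61, 3.22, 3.71 and 3.72 in UCC2003, 4.32, 4.22, 3.84 and 3.78 in TadA mutant and 4.56, 4.56, 3.78 and 4.45 in GF, all UCC2003 arrays being lowest. Mcpt1, a protease of mucosal mast cells, was in the table and averaged 5.24 in UCC2003, 5.51 in TadA mutant and 5.08 in GF, outside the set. Of the 20-gene myeloid and mast cell list 5 genes were in the table; their mean per array ran from 5.77 to 6.13 in UCC2003, 5.75 to 5.99 in TadA mutant and 5.52 to 5.68 in GF. Vwf, the clotting factor of endothelial cells and platelets, had 5.50, 5.16, 5.26 and 5.14 in UCC2003, 4.85, 4.81, 4.70 and 5.00 in TadA mutant and 4.80, 4.76, 4.86 and 4.64 in GF, with UCC2003 arrays above the rest. The 3 other endothelial markers, read on transcript clusters, were outside the limits. Cdh5 averaged 6.54 in UCC2003, 6.44 in TadA mutant and 6.27 in GF. In the same order Cldn5 averaged 4.80, 4.49 and 4.64, and Lyve1 averaged 7.19, 7.15 and 7.23. In colon RNA, fewer cells of a type and less RNA per cell cannot be told apart.

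Genes for regulators followed. Dact1, which binds Dishevelled in Wnt signalling, averaged 5.33 ± 0.11 in UCC2003, 4.77 ± 0.37 in TadA mutant and 4.68 ± 0.13 in GF. Osr1 and Hic1 encode zinc finger transcription factors, and averaged 6.92 ± 0.18 in UCC2003, 6.38 ± 0.33 in TadA mutant and 6.39 ± 0.34 in GF for Osr1 and 7.06 ± 0.22 in UCC2003, 6.63 ± 0.23 in TadA mutant and 6.38 ± 0.30 in GF for Hic1. Bhlhe41, a transcriptional repressor tied to the circadian clock, had 4.73, 4.76, 4.57 and 5.02 in UCC2003, 3.82, 3.92, 4.03 and 4.56 in TadA mutant and 3.83, 4.87, 4.19 and 4.18 in GF, with 1 GF array at the level of the UCC2003 arrays. Ccrn4l (nocturnin, now Noct), a phosphatase with a daily rhythm in mouse tissues, had 7.92, 8.26, 7.44 and 7.52 in UCC2003, 7.13, 7.49, 7.20 and 7.26 in TadA mutant and 7.14, 7.10, 7.47 and 7.08 in GF; 1 TadA mutant and 1 GF array fell within the UCC2003 range. Per1, another clock gene of the table, averaged 7.04 in UCC2003, 6.81 in TadA mutant and 7.18 in GF and was outside the set. Among defence genes, Defb23, a beta-defensin, averaged 5.94 ± 0.29 in UCC2003, 5.21 ± 0.09 in TadA mutant and 5.40 ± 0.30 in GF, and Stfa2, a cysteine protease inhibitor, 2.46 ± 0.62 in UCC2003, 1.68 ± 0.18 in TadA mutant and 1.79 ± 0.25 in GF. The remaining higher genes with established names that were chosen for size were the antisense RNA Recql5as1, at 5.01 ± 0.34 in UCC2003, 4.11 ± 0.33 in TadA mutant and 4.08 ± 0.46 in GF, and the ribosomal protein pseudogenes Rpl15-ps1, at 3.99 ± 0.42 in UCC2003, 3.09 ± 0.47 in TadA mutant and 2.98 ± 0.43 in GF, and Rpl21-ps5, at 5.42 ± 0.28 in UCC2003, 4.49 ± 0.53 in TadA mutant and 4.62 ± 0.52 in GF.

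**Figure D1:**
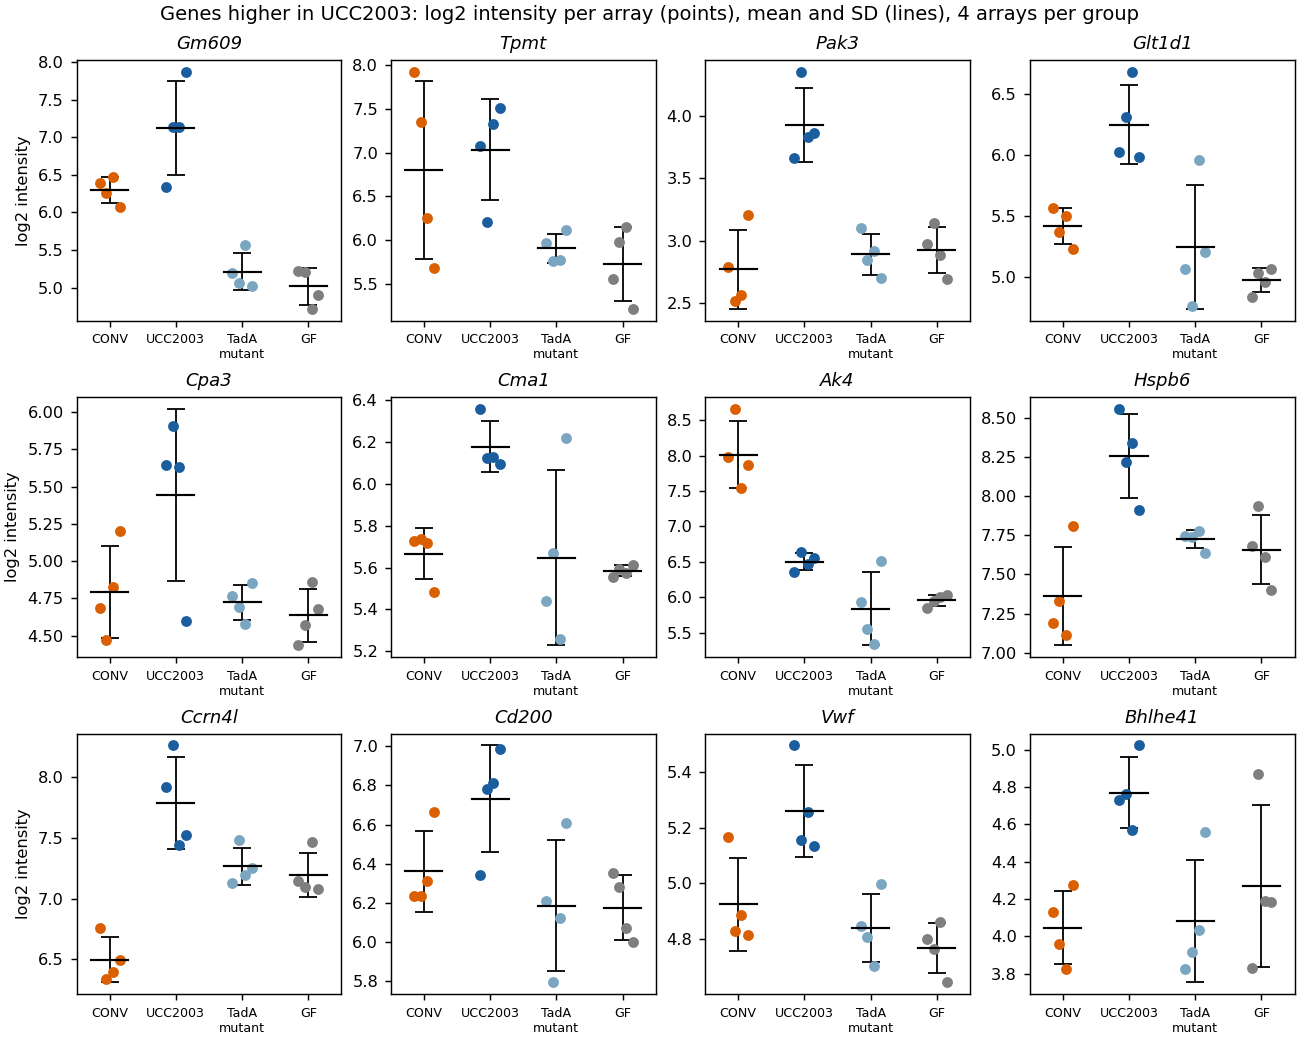
Log2 intensity of 12 genes higher in UCC2003, with 1 point per array, a horizontal line at the group mean and bars of 1 SD, in CONV, UCC2003, TadA mutant and GF (4 arrays each; the scale differs between panels). UCC2003 arrays of Gm609, Tpmt, Pak3, Glt1d1 and Vwf sat above all TadA mutant and GF arrays, and CONV arrays of Ak4 sat above every other group.

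Gm11534, annotated in the table as an antisense RNA gene on chromosome 11, was lowest in UCC2003 by the widest margin. It had 5.34, 4.31, 4.58 and 3.40 in UCC2003, 6.39, 6.09, 6.52 and 6.75 in TadA mutant and 6.02, 6.22, 6.08 and 6.44 in GF. The UCC2003 mean was 0.244 times the TadA mutant mean and 0.29 times the GF mean in linear intensity, and all UCC2003 arrays were below the other 8. The UCC2003 arrays themselves ran from 3.40 to 5.34. Over the 16 arrays its level was most like that of B4galnt2 (Pearson r = 0.958), Rbm20 (0.895) and Gm17782 (0.853). B4galnt2, a chromosome 11 gene for a glycosyltransferase that adds N-acetylgalactosamine, was set apart by name. Its UCC2003 mean was lower than TadA mutant by 2.18 and lower than GF by 2.13.

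Ppy, the pancreatic polypeptide hormone of islet cells and of some gut endocrine cells, had 8.41, 8.21, 8.07 and 8.35 in UCC2003, 9.04, 9.22, 8.45 and 8.90 in TadA mutant and 9.11, 9.07, 8.73 and 8.86 in GF. All UCC2003 arrays were below the other 8. Ppy had a named transcript cluster, and there it met the limits again, at 8.06, 8.03, 7.42 and 8.07 in UCC2003 replicates 1 to 4, 8.80, 9.12, 8.26 and 8.79 in TadA mutant and 8.89, 8.74, 8.48 and 8.57 in GF. The clusters carry replicate numbers, so the pancreas list could be read beside it. It averaged 13.1, 6.38, 13.1 and 6.33 in UCC2003 replicates 1 to 4, 6.16, 12.97, 6.55 and 8.23 in TadA mutant and 6.27, 13.1, 12.9 and 12.7 in GF. UCC2003 replicates 2 and 4, where the list mean was low, had Ppy at 8.03 and 8.07, and replicates 1 and 3, where it was high, had 8.06 and 7.42. Sycn, a secretory granule gene of that list, was high in replicates 2 and 4 as well, at 12.4 and 13.2. It was high in every array of the 4 groups, from 11.9 to 13.4, and so did not separate arrays with a high and a low list mean. Of the 5 genes of the set with a named cluster, Ppy alone met the limits there; Ak4, Erc1, Mt4 and Rps4y2 did not.

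The Ppy promoter (RefSeq, GRCm38.p6, chr11:102101270-102101569, minus strand) is shown because Ppy met the limits in both summaries of the probes; it has 1 TATA box, TATAAA, in capitals, beginning 31 bases before the transcript start:
Ppy: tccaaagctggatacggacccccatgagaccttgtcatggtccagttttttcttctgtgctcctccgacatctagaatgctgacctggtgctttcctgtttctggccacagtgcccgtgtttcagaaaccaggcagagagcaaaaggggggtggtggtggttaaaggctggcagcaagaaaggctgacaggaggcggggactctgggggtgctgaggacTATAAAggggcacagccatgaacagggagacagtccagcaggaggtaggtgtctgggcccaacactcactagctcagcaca

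Several of the lower genes take part in metabolism. Miox, which opens the ring of myo-inositol, had 4.02, 3.92, 4.50 and 3.52 in UCC2003, 4.83, 4.20, 5.31 and 5.61 in TadA mutant and 4.48, 4.90, 4.49 and 4.92 in GF and UCC2003 arrays overlapped both other groups. G6pc, the glucose-releasing phosphatase of liver and intestine, averaged 5.12 ± 0.23 in UCC2003, 5.54 ± 0.18 in TadA mutant and 5.59 ± 0.31 in GF. Ckmt2, a mitochondrial creatine kinase of muscle, averaged 4.24 ± 0.18 in UCC2003, 4.85 ± 0.13 in TadA mutant and 4.92 ± 0.23 in GF, with all UCC2003 arrays lowest. Creb3l3, a membrane-bound transcription factor of liver and intestine that controls lipid genes, averaged 5.62 ± 0.13 in UCC2003, 6.09 ± 0.11 in TadA mutant and 6.11 ± 0.13 in GF, again with all UCC2003 arrays lowest. Fitm1, a lipid droplet protein, averaged 3.89 ± 0.23 in UCC2003, 4.30 ± 0.17 in TadA mutant and 4.43 ± 0.35 in GF. Cisd3, a mitochondrial iron-sulphur protein, had 8.95, 8.89, 8.73 and 9.20 in UCC2003, 9.08, 9.53, 9.62 and 9.50 in TadA mutant and 9.64, 9.04, 9.71 and 9.34 in GF, with overlap. Gda, guanine deaminase, had 7.70, 7.25, 8.19 and 7.70 in UCC2003, 8.04, 8.12, 8.23 and 8.25 in TadA mutant and 8.34, 8.08, 8.64 and 8.32 in GF, and 1 UCC2003 array reached the level of the TadA mutant and GF arrays. Aasdh, an enzyme related to aminoadipate handling, averaged 6.53 ± 0.33 in UCC2003, 7.11 ± 0.15 in TadA mutant and 7.13 ± 0.18 in GF, and Mt4, a metallothionein of stratified epithelia, 4.97 ± 0.34 in UCC2003, 5.54 ± 0.32 in TadA mutant and 5.78 ± 0.30 in GF. On its transcript cluster Mt4 was 0.15 above TadA mutant and outside the limits.

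Some of the lower genes encode signalling or developmental proteins, as some of the higher ones do. Fgf8, a fibroblast growth factor of embryonic patterning, averaged 5.86 ± 0.27 in UCC2003, 6.43 ± 0.22 in TadA mutant and 6.50 ± 0.26 in GF; Sox14, a transcription factor of the nervous system, 4.74 ± 0.45 in UCC2003, 5.36 ± 0.20 in TadA mutant and 5.32 ± 0.33 in GF; and Neurod2, a neuronal basic helix-loop-helix factor, 6.59 ± 0.17 in UCC2003, 7.02 ± 0.22 in TadA mutant and 7.04 ± 0.13 in GF. In each, all UCC2003 arrays were below the other 8, by a narrow gap for Sox14 (highest UCC2003 array 5.05, lowest GF array 5.06). Gabrd, the delta subunit of GABA-A receptors, averaged 7.25 ± 0.12 in UCC2003, 7.73 ± 0.28 in TadA mutant and 8.0 ± 0.18 in GF. Siva1, a pro-apoptotic protein, averaged 7.68 ± 0.21 in UCC2003, 8.19 ± 0.07 in TadA mutant and 8.11 ± 0.16 in GF, with all UCC2003 arrays lowest. Adam33, a membrane metalloproteinase, had 4.17, 4.33, 4.79 and 5.15 in UCC2003, 5.59, 4.98, 5.13 and 6.16 in TadA mutant and 6.07, 5.25, 5.67 and 5.01 in GF, with overlap. Cnp, an enzyme of myelin, averaged 4.87 ± 0.36 in UCC2003, 5.43 ± 0.08 in TadA mutant and 5.51 ± 0.40 in GF.

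Defence and epithelial secretory genes included Defb35, a beta-defensin, at 4.47 ± 0.28 in UCC2003, 4.91 ± 0.10 in TadA mutant and 4.98 ± 0.31 in GF, Csta, a cysteine protease inhibitor of epithelia, at 6.04 ± 0.41 in UCC2003, 6.46 ± 0.18 in TadA mutant and 6.56 ± 0.36 in GF, Kir3dl1, a killer cell receptor, at 4.73 ± 0.20 in UCC2003, 5.20 ± 0.17 in TadA mutant and 5.25 ± 0.20 in GF, and Scgb3a2, a secretoglobin known from airways, at 3.64 ± 0.17 in UCC2003, 4.22 ± 0.26 in TadA mutant and 4.38 ± 0.25 in GF. UCC2003 arrays of Kir3dl1 and Scgb3a2 were below all others. The remaining lower genes chosen for size were Magea6, at 1.85 ± 0.30 in UCC2003, 2.83 ± 0.17 in TadA mutant and 2.61 ± 0.40 in GF, Cmtm2a, at 2.31 ± 0.37 in UCC2003, 3.13 ± 0.17 in TadA mutant and 3.19 ± 0.49 in GF, the pseudogene Rpl23a-ps12, at 4.08 ± 0.34 in UCC2003, 4.76 ± 0.27 in TadA mutant and 4.86 ± 0.51 in GF, and Rps4y2 (now Rps4l), a ribosomal protein gene on chromosome 6, at 6.01 ± 0.53 in UCC2003, 6.62 ± 0.13 in TadA mutant and 6.75 ± 0.12 in GF. On its transcript cluster Rps4y2 was -0.25 from TadA mutant and -0.44 from GF, outside the limits. Magea6 belongs to a gene family whose members are nearly identical in sequence, so its probes may read related genes. The genes of this and the earlier paragraphs that were outside the rule for naming were picked by function after their values had been seen.

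Mir152 and Mir182, the host loci of 2 microRNAs, were lower in UCC2003. MicroRNAs repress messenger RNAs that pair with their seed, bases 2 to 8. Mir152 had 3.34, 3.06, 3.53 and 3.87 in UCC2003, 3.82, 4.05, 4.25 and 4.10 in TadA mutant and 4.71, 3.73, 3.86 and 4.33 in GF, and Mir182, at very low signal, had 1.80, 1.88, 2.10 and 2.05 in UCC2003, 2.14, 2.41, 2.25 and 3.38 in TadA mutant and 2.47, 2.26, 2.51 and 2.61 in GF. The highest UCC2003 array of Mir152 exceeded 1 TadA mutant and 2 GF arrays, and UCC2003 arrays of Mir182 were below all others. The array probes read RNA of the locus, not the mature microRNA. The mature sequences (RefSeq, GRCm38.p6) lie at chr11:96850439-96850459 and chr11:96850400-96850423 on the plus strand and at chr6:30165962-30165986 and chr6:30165923-30165943 on the minus strand. They are shown, with the seed in capitals, because the seed defines the targets; the 4 seeds all differ, and that of mmu-miR-152-3p is shared by 3 of 1679 mature mouse names in the table:
mmu-miR-152-3p: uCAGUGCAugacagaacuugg
mmu-miR-152-5p: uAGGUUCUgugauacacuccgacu
mmu-miR-182-5p: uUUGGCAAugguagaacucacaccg
mmu-miR-182-3p: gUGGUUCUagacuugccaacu

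**Figure D2:**
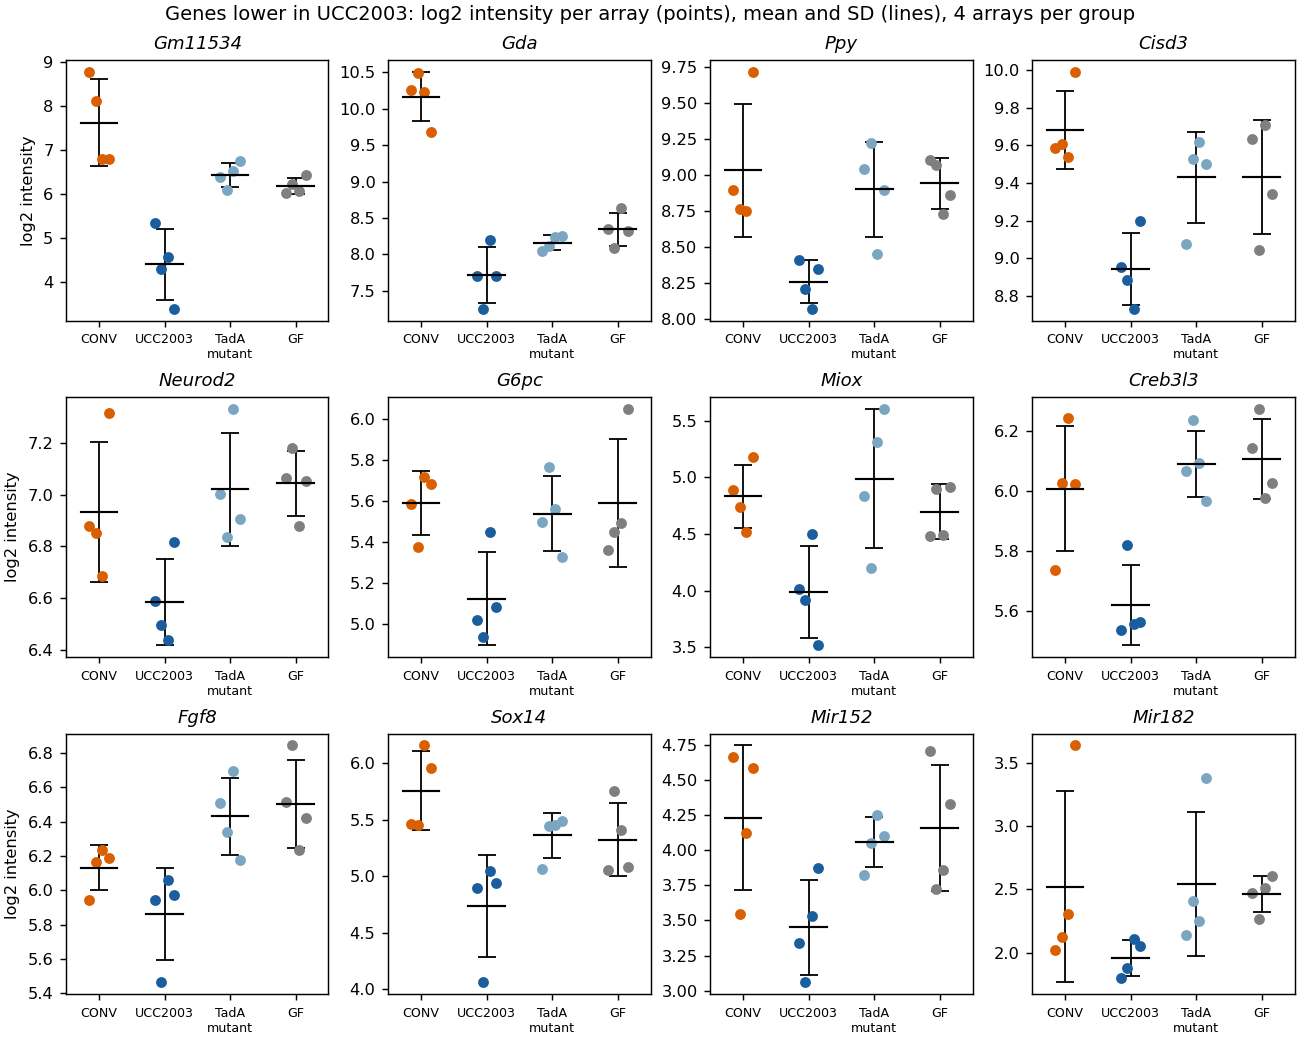
Log2 intensity of 12 genes lower in UCC2003, with 1 point per array, a horizontal line at the group mean and bars of 1 SD, in CONV, UCC2003, TadA mutant and GF (4 arrays each; the scale differs between panels). UCC2003 arrays of Gm11534, Ppy, Neurod2, Creb3l3, Fgf8, Sox14 and Mir182 sat below all TadA mutant and GF arrays, and CONV arrays of Gda sat above every other group.

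CONV arrays, which did not enter the choice, showed where the same genes stood with a full microbiota. The name of the set, genes moved by UCC2003 only, held against GF and TadA mutant by construction but not against CONV in every gene. The CONV mean was nearer to the UCC2003 mean than to the mean of TadA mutant and GF in 12 of the 60 higher and 17 of the 79 lower genes, and at or beyond it in 2 and 5. It lay on the opposite side of the TadA mutant and GF mean in 21 and 30. Each contrast was tested in limma over all 1793 genes and 16 arrays, two-sided, with Benjamini-Hochberg adjustment over 35860 tests, the 1793 genes divided by the 0.05 of the authors' ANOVA that they had passed, and a threshold of 0.05. The 3 contrasts share the CONV arrays, and each also uses arrays that entered the choice. The fit pools the spread of all 4 groups, and CONV spread most. The median SD over the table was 0.246 in CONV, 0.159 in UCC2003, 0.155 in TadA mutant and 0.179 in GF. Pooled SEs may therefore be too small for CONV contrasts, and the adjustment for the number of tests does not correct this.

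Against GF, 3 of the 139 genes were called, all higher in CONV: Gda, Ak4 and Gm609. The table as a whole had 62 of 1793 (3.46%), with CONV higher in 2.73% and lower in 0.725%. Against TadA mutant, 2 were called, Gda and Ak4, both higher, with 23 of 1793 (1.28%) in the table, CONV being higher in 1.0% and lower in 0.279%. The median CONV minus GF difference was 0.16 for the 60 genes, -0.11 for the 79 and -0.01 for the table, and the median CONV minus TadA mutant difference was 0.07, -0.13 and 0.01 in the same order. Both shares of calls were near those of the table. Against UCC2003, 10 were called, 5 higher and 5 lower in CONV, beside 74 of 1793 (4.13%), of which 2.62% were higher and 1.51% lower; the choice by UCC2003 values favours such calls, and nothing is read from their number.

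Ak4 had 7.98, 8.66, 7.54 and 7.87 in CONV, above all other arrays. CONV minus UCC2003 was 1.51 (SE 0.229, adjusted p = 0.00799), CONV minus TadA mutant was 2.18 (SE 0.229, adjusted p = 0.000253) and CONV minus GF was 2.06 (SE 0.229, adjusted p = 0.000489). So Ak4 was higher in UCC2003 than in TadA mutant and GF, and higher again in CONV. Its transcript cluster gave 7.73 ± 0.61 in CONV, 6.78 ± 0.08 in UCC2003, 6.21 ± 0.47 in TadA mutant and 6.50 ± 0.08 in GF, the same order of CONV and UCC2003 over both others but with a UCC2003 minus GF difference of 0.28, outside the limits. Gda had 10.26, 10.49, 10.24 and 9.69 in CONV, also above all other arrays, with a CONV minus UCC2003 difference of 2.46 (SE 0.188, adjusted p = 1.3e-05), a CONV minus TadA mutant difference of 2.01 (SE 0.188, adjusted p = 6.4e-05) and a CONV minus GF difference of 1.82 (SE 0.188, adjusted p = 0.00019). The full microbiota and the parent strain thus stood on opposite sides of germ-free for Gda and on the same side for Ak4.

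Promoters of both genes are shown because only they were called in all 3 contrasts. The Ak4 entries differ: the 3 not shown each carry 1 CCAAT box, 1 GC box and no E-box. Ak4 has 4 entries in the RefSeq promoter table, and the last is given (GRCm38.p6, chr4:101419453-101419752, plus strand), with an E-box CACGTG and 2 GC boxes in capitals; Gda has 1 entry (chr19:21472612-21472911, minus strand), with a CCAAT box on the minus strand, read as ATTGG, in capitals:
Ak4: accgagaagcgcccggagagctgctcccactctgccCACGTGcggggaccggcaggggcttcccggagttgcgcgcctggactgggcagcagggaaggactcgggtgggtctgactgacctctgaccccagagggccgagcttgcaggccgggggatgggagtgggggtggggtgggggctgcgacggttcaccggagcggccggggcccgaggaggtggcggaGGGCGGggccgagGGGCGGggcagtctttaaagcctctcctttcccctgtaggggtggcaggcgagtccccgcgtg
Gda: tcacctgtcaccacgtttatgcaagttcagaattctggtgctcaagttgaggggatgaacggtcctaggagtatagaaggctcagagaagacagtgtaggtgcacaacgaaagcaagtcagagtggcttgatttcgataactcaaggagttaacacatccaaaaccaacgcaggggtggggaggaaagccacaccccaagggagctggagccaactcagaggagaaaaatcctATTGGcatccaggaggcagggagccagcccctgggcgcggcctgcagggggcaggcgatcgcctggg

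Gm609 had 6.39, 6.25, 6.47 and 6.07 in CONV, above all TadA mutant and GF arrays. CONV minus GF was 1.28 (SE 0.237, adjusted p = 0.0406), CONV minus TadA mutant was 1.08 (SE 0.237, adjusted p = 0.237) and CONV minus UCC2003 was -0.83 (SE 0.237, adjusted p = 0.406). The GF call was lost in 13 of the 16 fits that left out 1 array, with adjusted p up to 0.172, whereas the calls of Ak4 and Gda against GF and TadA mutant held in all 16. In the fit of the 2 compared groups alone, Gm609 and Ak4 were still called against GF (adjusted p = 0.0229 and 0.011). There Ak4 was not called against TadA mutant (adjusted p = 0.0816) or UCC2003 (adjusted p = 0.0795). Tpmt spread widely in CONV, at 7.92, 7.35, 6.25 and 5.68. Of these, 1 array was above all UCC2003 arrays, 2 were within the UCC2003 range and 1 was at the germ-free level. The CONV minus GF difference of Tpmt, 1.08 (SE 0.393, adjusted p = 1), was not called.

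Among the calls against UCC2003, Ccrn4l had 6.76, 6.34, 6.40 and 6.50 in CONV, below every array of the other groups. Its CONV minus UCC2003 difference was -1.29 (SE 0.164, adjusted p = 0.00167). CONV was also below GF by a difference of -0.70 (SE 0.164, adjusted p = 0.206), which was not called. Pak3, Hspb6, Lrrc41 and the non-coding Gm20416 were lower in CONV than in UCC2003 by differences of -1.16 (SE 0.168, adjusted p = 0.00534), -0.90 (SE 0.160, adjusted p = 0.0293), -0.80 (SE 0.154, adjusted p = 0.046) and -0.93 (SE 0.177, adjusted p = 0.0431) in that order. Gm11534 had 8.77, 8.12, 6.80 and 6.80 in CONV, all above UCC2003, TadA mutant and GF, with CONV minus UCC2003 at 3.22 (SE 0.411, adjusted p = 0.00167) and CONV minus GF at 1.44 (SE 0.411, adjusted p = 0.587). Defb35 and the predicted gene Gm1647 were higher in CONV than in UCC2003 by 0.84 (SE 0.160, adjusted p = 0.0419) and 0.80 (SE 0.139, adjusted p = 0.0228). Leaving out 1 array at a time ended the calls of Gm1647 and Hspb6 in 5 and 6 of 16 fits, and those of Gm20416, Lrrc41 and Defb35 in 12, 14 and 14, with adjusted p up to 0.199. In the fit of the 2 compared groups alone, only Gda was still called.

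**Figure D3:**
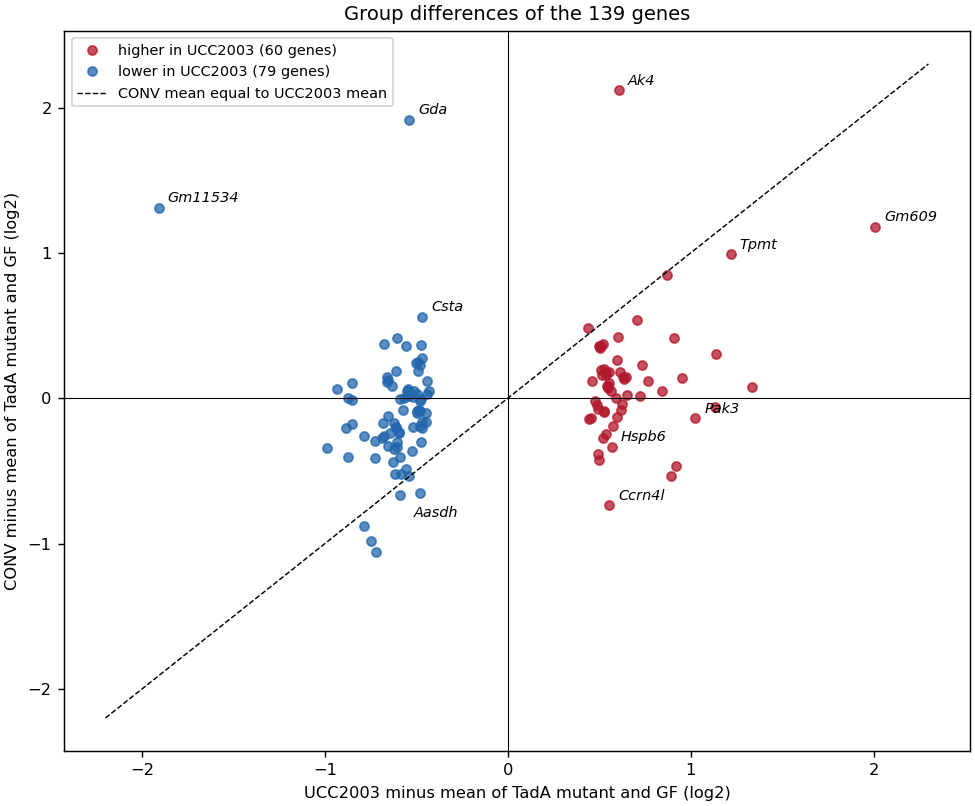
Each point is 1 of the 139 genes, placed by its UCC2003 mean (horizontal) and its CONV mean (vertical), both minus the mean of TadA mutant and GF, in log2 units; the empty band around 0 on the horizontal axis is made by the rule. Most points lie near 0 on the vertical axis, while Ak4, Gda, Gm11534, Gm609 and Tpmt lie above it and Ccrn4l below it.

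The set held a smaller share of protein-coding genes than the table. Protein-coding genes were 75 of 139 (54.0%), against 1382 of 1793 (77.1%). Pseudogenes were 28 (20.1%, against 9.87%) and long non-coding RNAs 32 (23%, against 11.3%). The 2 sides are not alike: 20 genes were left out of the set by name, whereas the table's shares were taken over all 1793 genes. How far this lowers the protein-coding share of the set was not tested. Names of the predicted, clone or Riken kind were carried by 73, and 66 had another name. The 27 such genes higher in UCC2003 had smaller differences of 0.40 to 1.91 with a median of 0.49, and the 46 lower ones 0.40 to 1.78 with a median of 0.50; the 33 higher and 33 lower genes with other names had medians of 0.53 and 0.51. Pseudogenes can share probes' sequence with their parent genes, so their values and those of ribosomal protein pseudogenes are uncertain. Gm20773, a Y-linked predicted gene and the second by size among the higher genes, had 4.00, 3.54, 3.31 and 3.04 in UCC2003, 2.78, 1.75, 2.15 and 2.37 in TadA mutant and 2.32, 2.50, 1.63 and 1.60 in GF, all UCC2003 arrays being highest at low signal. Of the 4 Y-linked genes of the table, 1 was in the set. The sex of the mice is not given, and whether it differed between groups was not tested.

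**Figure D4:**
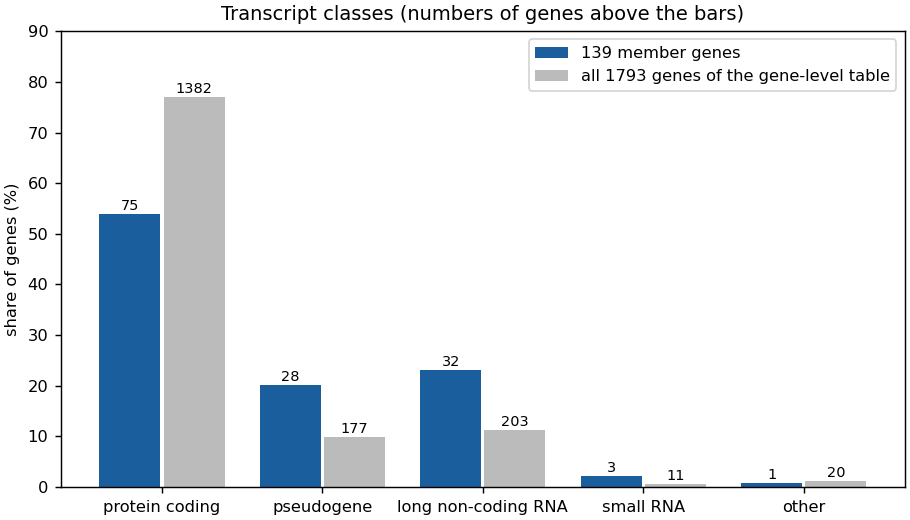
Share of each transcript class, in percent of genes, among the 139 genes of the set (blue) and all 1793 genes of the table (grey), with the number of genes above each bar. Pseudogenes, at 20.1% against 9.87%, and long non-coding RNAs, at 23% against 11.3%, took a larger share of the set than of the table. Genes left out of the set by name were kept in the table.

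By chromosome, 21 genes (15.1%) lay on chromosome 11, against 8.37% of the table, followed by 15 (10.8%) on chromosome 4, against 7.25%. Next by number came chromosome X with 11 (7.91%, against 5.41%). Chromosomes 16 and 6 held 10 each (7.19%), against 3.57% and 5.35%. In the order of RefSeq genes 131 genes of the table could be placed on chromosome 11, 16 of them in the set. The stretch from B4galnt2 to Ppy, chosen after the values had been seen, held 23 of the placed genes. It included 6 of the set, Mir152, Cisd3, Neurod2, Cnp, G6pc and Ppy, all lower in UCC2003. Of the 23, UCC2003 was below both TadA mutant and GF in 14 and above both in 2. Over the placed genes of the chromosome it was below both in 61 of 131. Gm11534 could not be placed, since RefSeq's table held no gene of that name.

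**Figure D5:**
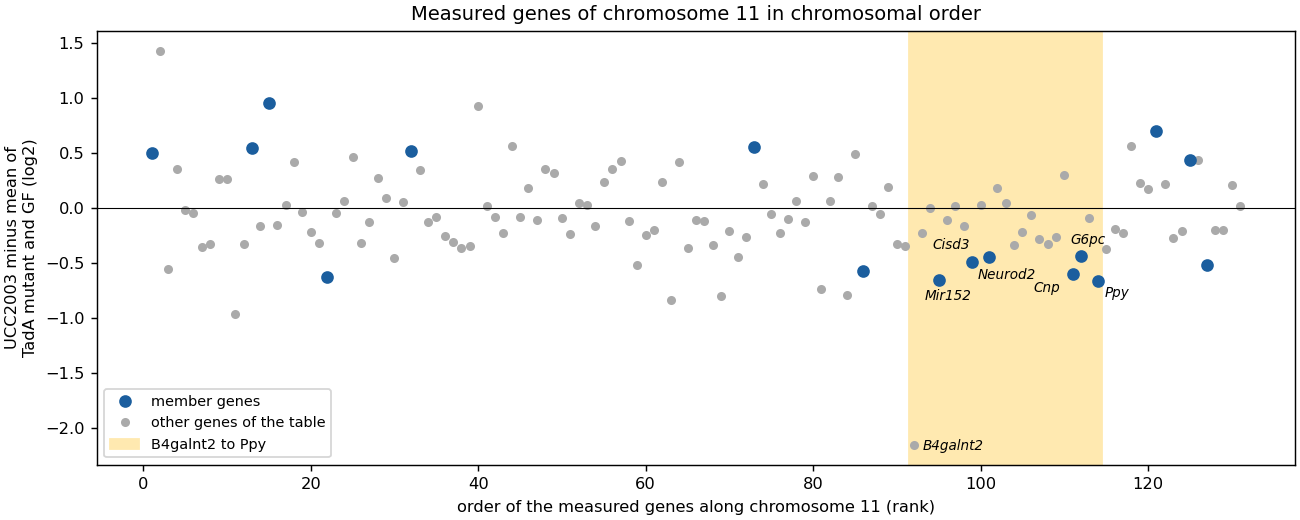
Measured genes of chromosome 11 in chromosomal order (horizontal, rank) against the UCC2003 mean minus the mean of TadA mutant and GF (vertical, log2 units); blue points are genes of the set, grey points other genes of the table, and the band runs from B4galnt2 to Ppy. The 6 genes of the set in the band all lie below 0, between -0.44 and -0.66, and B4galnt2 lies at -2.16.

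Promoter letters were counted in the RefSeq promoter table (250 bases before to 50 after the start, both strands), which held 32 of the 60 higher and 35 of the 79 lower genes. The CCAAT box, CCAAT, was in 18 of 32 (56.2%) higher and 16 of 35 (45.7%) lower genes, against 41.1% of 27025 genes with a promoter. The GC box, GGGCGG, was in 16 (50%) and 11 (31.4%), against 38.2%. The antioxidant response core TGACNNNGC was in 4 (12.5%) and 7 (20%), against 14%. The E-box CACGTG was in 4 (12.5%) and 2 (5.71%), against 8.09%, the AP-1 site TGANTCA in 2 (6.25%) and 4 (11.4%), against 8.97%, and the STAT site TTCNNNGAA in 2 (6.25%) and 4 (11.4%), against 9.55%. TATAAA was in 6 (18.8%) and 7 (20%), against 15.7%. The interferon-stimulated element core was in 2 (6.25%) and 1 (2.86%), against 3.99%. The DR1 half-site pair was in 0 of either, against 0.0481%. These counts are a description of letters in a window.

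Of the 139 genes, 3 (2.16%) came from the 18 gene lists for colon cell types and responses, Cpa3, Vwf and Bhlhe41, against 58 of 1793 (3.23%) in the table, a similar share. In lists with no gene of the set, UCC2003 was below both TadA mutant and GF in 6 of 10 proliferation genes, but the GF difference was small (median -0.04, against -0.50 to TadA mutant). For the smooth muscle list, UCC2003 was above both in 6 of 7 genes, with medians of 0.09 against TadA mutant and 0.64 against GF. For 8 B cell genes the medians were 0.08 against TadA mutant and 0.89 against GF. Of 7 xenobiotic and lipid metabolism genes, UCC2003 was above both in 5; Cyp4f14, an omega-hydroxylase, missed the set only because TadA mutant and GF differed by 0.33.

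At the edges of the rule, the genes just inside the 0.4 limit had smaller differences of 0.401 (Vopp1), 0.402 (Dmrta1) and 0.402 (Pcmtd1), and those just outside had 0.397 (Map6d1), 0.395 (Dedd) and 0.393 (Gli1). Just inside the 0.3 limit, TadA mutant and GF differed by 0.293 (Mrgprb2), 0.291 (Miox) and 0.283 (Vmn1r-ps22), and just outside it by 0.330 (Ighv5-15), 0.335 (Cyp4f14) and 0.337 (Bcl2a1a). Genes on either side of a limit differed by less than the median SD within a group of the rule, 0.155 to 0.179 over the table.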

How the data were processed

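RNA of 16 mouse colons was labelled with biotin and read on Affymetrix Mouse Exon ST arrays. The deposited values are log2 intensities; the submitters' processing notes give RMA, Affymetrix Expression Console 1.1, Partek and the build mm9. The gene-level table, which the authors deposited with log2 values per array, holds 1793 genes with an ANOVA p-value under 0.05 in the authors' deposited column; the design text names Subio Platform. Its columns give the group but no replicate number. Transcript clusters (23332) carry samples, and few have gene names: 2017 symbols name exactly 1 cluster, 5 of them genes of the set.

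Group means and SDs, the rule's limits (0.4 and 0.3) and all counts were computed from the gene-level table. CONV contrasts were fitted with limma 3.58.1 in R 4.3.3 (prior degrees of freedom 3.77), with 1 coefficient per group and no other term, two-sided, adjusted by Benjamini-Hochberg over 35860 tests because the genes had been selected by a p-value; the procedure was tested on simulated data. The number of arrays limits the precision. The genes, lists and tests were chosen with earlier results of these data known. Genes are named by rule: up to 15 higher and 15 lower with an established name and the largest smaller difference, all called against CONV, all of the set in a fixed list, 3 on each side of each limit, and others by function after their values were seen. Alternatives were array centring, quantile normalisation, other variance models, fewer groups, other adjustment, a signal filter, clusters, other limits and leaving out each array. Names and sequences come from RefSeq tables on GRCm38.p6, in which 112 of the 139 genes were found, 6 under a newer symbol; coordinates of that build are given with its sequences only. Scan dates and slides were not used here, and 1 measured gene of a list is not reported here.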

Additional observations from a re-analysis of the deposited data

Results flagged for a closer look

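Among 288 groups of 4 arrays (72 genes in 4 conditions), 16 (5.56%) held 1 array far from the other 3, its gap over the range of the group being above Dixon's critical value; chance gives about 1 in 20. In CONV the far array was Ppy at 9.72, Cisd3 at 9.99 and Auts2 at 5.48, each the highest, and Scgb3a2 at 3.55, Cma1 at 5.48 and Hic1 at 6.28, each the lowest. In UCC2003 it was Cma1 at 6.36, Tmtc3 at 7.53, Creb3l3 at 5.82 and Fitm1 at 4.23, each the highest, and Sox14 at 4.06, the lowest. In TadA mutant it was Sox14 at 5.07 and Gm20416 at 5.54, each the lowest. In GF it was Ccrn4l at 7.47 and Dmrta1 at 3.02, each the highest, and Mrgprb2 at 3.78, the lowest. For Tmtc3, lower in UCC2003, that array lay at the level of the TadA mutant and GF means of 7.55 and 7.42, while the other 3 UCC2003 arrays ran from 6.66 to 6.71.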

How the results depend on the processing

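The number of genes in the set followed its limits: 231 with a difference of 0.3, 74 with 0.5, 112 with TadA mutant and GF within 0.2 and 160 within 0.4 with the limits used. Group medians gave 127 genes (108 shared with the set), array centring 129 (116 shared), quantile normalisation 118 (98 shared) and leaving out 1 array 125 to 153 (113 to 128 shared). Calls of CONV against UCC2003, 10 genes, were 4 in an ordinary fit, 1 in the compared groups alone, 63 adjusted over the table alone, 5 to 9 without 1 array (fewest, 5, without CONV array 2 or UCC2003 array 2 of the table), 11 after centring and 9 after quantile normalisation. Against TadA mutant, 2 genes became 1 in the compared groups alone, 11 over the table alone and 2 to 3 without 1 array. Against GF, 3 genes became 12 over the table alone and 2 to 3 without 1 array. On transcript clusters 1 of the 5 measured genes was called in each contrast, and 1 with the replicate number as a block. Among the 5, the CONV minus UCC2003 difference was largest for Ppy (0.97, with Ak4 at 0.95). The differences of CONV to TadA mutant (1.52) and to GF (1.23) were largest for Ak4. Replicate numbers did not pair samples: deviations of same-numbered arrays correlated from -0.305 to 0.206 over 24 pairs, 4 of them over 0.1, and 2 of 16 arrays correlated best with their own number. With the block, calls over all clusters went to 381, against 706, for CONV against UCC2003, to 220, against 327, for TadA mutant and to 293, against 440, for GF. Of 456 alternative values for single genes, 376 kept direction and side of the threshold, 77 lost the call, 2 gained it and 1 reversed: Tpmt, CONV minus UCC2003, was -0.23 and became 0.15 without CONV array 4 of the table (-0.60 to 0.15 without 1 array), a difference that was not called. Causes were not tested. Low signal limits many genes: 64 of the genes had a mean under 5.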
